A study of Homo sapiens with 12 samples.

Results

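The HOX genes are the 39 coding genes of the HOXA, HOXB, HOXC and HOXD clusters, chosen by symbol (HOXA, HOXB, HOXC or HOXD followed by digits) among the 60660 genes of the deposited tables. All 39 were found, with 11 genes in HOXA, 10 in HOXB, 9 in HOXC and 9 in HOXD. The antisense RNAs of the clusters were kept apart and are described as a list of their own. The libraries are mRNA-seq of LNCaP, a human prostate cancer (PCa) cell line from a lymph node metastasis, and of 22Rv1, a human PCa cell line from a xenograft that relapsed after castration. Cells of each line received NC-mimic, the negative control (genotype "control"), or a mimic of the PIWI-interacting RNA piR-hsa-4447944 (genotype "piR-hsa-4447944 overexpression"). All 4 groups were kept under androgen deprivation in charcoal-stripped serum (CS-FBS), so that the controls were deprived too, and each group had 3 libraries, 12 in all. The comparisons are of LNCaP with 22Rv1 in NC-mimic libraries, of mimic with NC-mimic in each line, and of the mimic effect between the lines.

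HOX genes encode transcription factors that bind DNA through a homeodomain and set the identity of body segments along the head to tail axis. Within a cluster the genes stand in the order in which they are used, from paralogue group 1 (anterior) to group 13 (posterior), and genes of the same group in different clusters are paralogues. Posterior HOX genes act in the urogenital tract: HOXA13 and HOXD13 are needed for normal growth of the prostate, and HOXB13 is a lineage factor of the luminal prostate epithelium that binds chromatin together with the androgen receptor.

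In the hg38 build, with the gene models of GENCODE release 44, HOXA lies at chr7:27092993-27200091 on the minus strand, HOXB at chr17:48528526-48728750 on the minus strand, HOXC at chr12:53938831-54056030 on the plus strand and HOXD at chr2:176092721-176190907 on the plus strand. HOXB13 (chr17:48724763-48728750) is set apart from the rest of its cluster, with 98404 bases between the end of HOXB9 and its start, and the coding genes PRAC1 and PRAC2 lie in this gap.

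The homeobox is the part of a HOX gene that encodes the homeodomain. The 30 bases that encode the core of its DNA-reading helix are shown 5′ to 3′ on the coding strand for paralogue group 13 and for 4 other genes called between the lines, to set the genes whose levels are compared below beside each other. Capitals mark bases that differ from HOXB13. All of these stretches are exonic and coding.
HOXB13: tggtttcagaaccgccgggtcaaagagaag
HOXC13: tggttCcagaaccgGcgggtcaaagagaag
HOXA13: tggttCcagaacAgGAgggtTaaagagaaA
HOXD13: tggtttcagaaccgAAgAgtGaaGgaCaag
HOXC6: tggttCcagaaccgccggAtGaaGTGgaaA
HOXB6: tggttCcagaaccgAcgCAtGaaGTGgaaA
HOXB5: tggttCcagaaccgGcgCAtGaaGTGgaag
HOXC10: tggtttcaAaaTcgcAgAAtGaaaCTCaag
The HOXB13 stretch lies at chr17:48726829-48726858 (minus strand, exon 2), that of HOXC13 at chr12:53945182-53945211 (plus strand, exon 2), that of HOXA13 at chr7:27198231-27198260 (minus strand, exon 2) and that of HOXD13 at chr2:176094665-176094694 (plus strand, exon 2). The HOXC6 stretch lies at chr12:54029816-54029845 (plus strand, exon 3), that of HOXB6 at chr17:48596482-48596511 (minus strand, exon 3), that of HOXB5 at chr17:48592269-48592298 (minus strand, exon 2) and that of HOXC10 at chr12:53989360-53989389 (plus strand, exon 2). HOXC13 differed from HOXB13 at 2 of these bases, HOXA13 and HOXD13 at 6 each, HOXC6 at 7, HOXB5 at 8, and HOXB6 and HOXC10 at 9 each.

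The libraries held between 12161091 and 22179601 expected counts, the reads per gene that RSEM estimated. Libraries of 22Rv1 were less alike than those of LNCaP: the lowest correlation of a library with its replicates over genes was between 0.992 and 0.994 in LNCaP and between 0.9499 and 0.967 in 22Rv1, and mimic library 3 of 22Rv1 had 4.37% of its TPM in mitochondrial genes against 8.74% to 11.86% in the others. The labels do not say whether the 3 libraries of a group came from separate cultures, and the study speaks of independent experiments without naming these libraries, so p-values measure the spread between these libraries. Luminal prostate markers were expressed in both lines, with a mean TPM of at least 1 for 8 of 8 genes and a summed TPM of 3641 to 4122 in LNCaP and 1706 to 2245 in 22Rv1. The basal markers KRT5, KRT14 and TP63 summed to at most 1.05 TPM in any library, PTPRC of leukocytes to at most 0.35 and PECAM1 of endothelium to at most 0.06. The 4 stromal genes summed to 30.88 to 49.15 TPM in LNCaP and 7.28 to 32.68 in 22Rv1. Of these, COL1A1 stood at 25.01 to 42.87 TPM in LNCaP and 4.23 to 21.68 in 22Rv1, while COL1A2 was at 0 in LNCaP and at most 1.55 in 22Rv1. The part of these in the differences between the lines was not tested.

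HOXB13 was the highest HOX gene in both lines by a wide margin. TPM is an abundance scaled by gene length and depth, so it allows genes to be compared within a library. In LNCaP, HOXB13 had a TPM of 255.4, 223.33 and 248.79 in the NC-mimic libraries and 233.86, 250.2 and 237.82 in the mimic libraries. In 22Rv1 it had 151.54, 158.3 and 132.6 with NC-mimic and 144.36, 154.38 and 150.51 with mimic. Every LNCaP library was above every 22Rv1 library, and within a line the groups overlapped. Among all genes of a library, ordered by TPM, HOXB13 ranked between 479 and 546 in LNCaP and between 831 and 1024 in 22Rv1.

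The 39 genes together had a summed TPM of 343.0 ± 11.5 (SD, n = 6 libraries) in LNCaP and 382.2 ± 29.2 (SD, n = 6) in 22Rv1. HOXB13 made up 70.4% ± 1.22 (SD, n = 6) of this sum in LNCaP and 39.01% ± 3.07 (SD, n = 6) in 22Rv1. The HOXC genes summed to nearly the same TPM in both lines, 70.8 ± 1.92 (SD, n = 6) in LNCaP and 73.0 ± 5.91 (SD, n = 6) in 22Rv1. HOXB genes other than HOXB13 summed to 9.99 ± 2.15 (SD, n = 6) in LNCaP and 101.2 ± 12.8 (SD, n = 6) in 22Rv1, and HOXA genes to 20.6 ± 1.64 and 58.8 ± 13.5 (SD, n = 6 each). The HOXD genes stayed at or below 1.48 TPM in sum in every library.

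**Figure D1:**
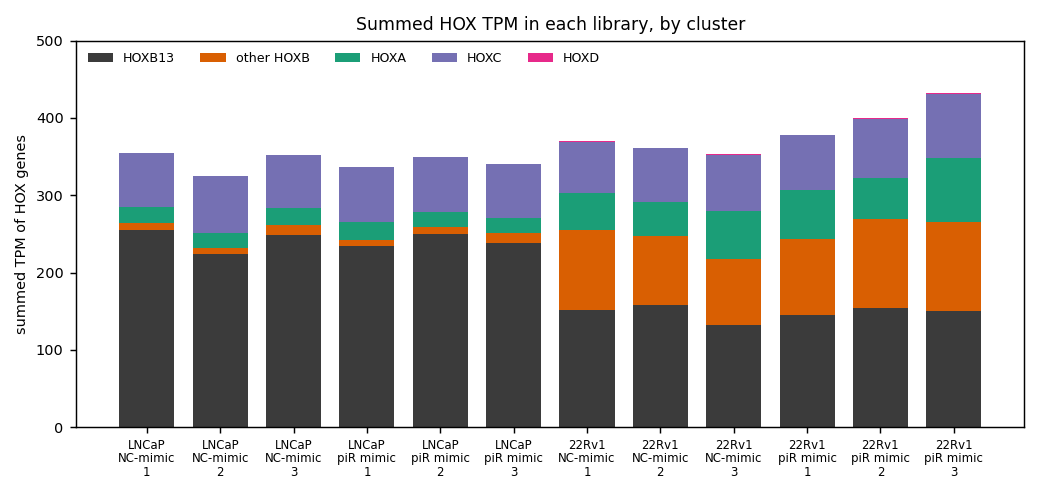
Summed TPM of the HOX genes (y axis) in each of the 12 libraries (x axis), stacked by cluster with HOXB13 apart. HOXB13 fills 68.82% to 71.96% of the bar in LNCaP and 34.83% to 43.79% in 22Rv1, where the other HOXB genes take 85.14 to 115.5 TPM.

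With a mean TPM of at least 1 over the 6 libraries of a line as the limit, 14 of 39 HOX genes were expressed in LNCaP and 24 in 22Rv1. Of these, 13 were above the limit in both lines, 11 in 22Rv1 only (HOXA2, HOXA3, HOXA7, HOXA9, HOXA13, HOXB4, HOXB5, HOXB7, HOXB8, HOXC8 and HOXC10) and 1 in LNCaP only (HOXC5). HOXC5 was close to the limit on both sides, with a mean TPM of 1.52 in LNCaP and 0.99 in 22Rv1. The other 14 genes were below it in both lines, and 9 of these were the whole HOXD cluster. By cluster, LNCaP expressed 4 of 11 HOXA, 4 of 10 HOXB and 6 of 9 HOXC genes, and 22Rv1 expressed 9 of 11 HOXA, 8 of 10 HOXB and 7 of 9 HOXC genes. By position, LNCaP expressed 1 of 8 genes of groups 1 to 3, 7 of 15 of groups 4 to 8 and 6 of 16 of groups 9 to 13, and 22Rv1 expressed 3 of 8, 12 of 15 and 9 of 16.

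**Figure D2:**
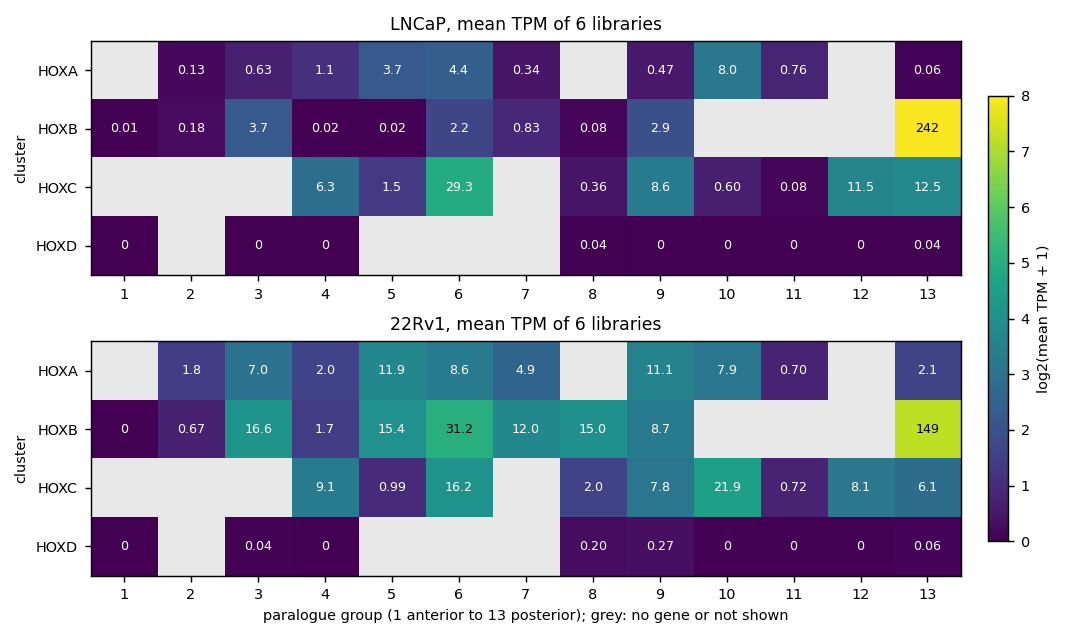
Mean TPM of 6 libraries for each HOX gene, with clusters in rows and paralogue groups 1 to 13 in columns, for LNCaP (top) and 22Rv1 (bottom). The colour is log2(mean TPM + 1) and grey squares have no gene or one not reported here. The HOXD row is near 0 in both lines, and the HOXB row between groups 4 and 8 holds 0.02 to 2.2 TPM in LNCaP and 1.7 to 31.2 in 22Rv1.

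In LNCaP the order after HOXB13 was HOXC6 with a mean TPM of 29.3 ± 2.36, HOXC13 with 12.5 ± 1.23, HOXC12 with 11.5 ± 1.32 and HOXC9 with 8.57 ± 0.577 (SD, n = 6 each). The libraries of HOXC13 and HOXC12 overlapped in TPM, as did those of HOXC9 and HOXA10, the next in order at 7.98 ± 1.28 (SD, n = 6). HOXB13, HOXC6 and HOXC12 did not overlap with the next gene below them. HOXC6 is often raised in prostate tumours, HOXC13 is known from hair and nail growth, and HOXA10 from the uterus.

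In 22Rv1 the order after HOXB13 was HOXB6 with 31.2 ± 6.68, HOXC10 with 21.9 ± 4.81, HOXB3 with 16.6 ± 2.36 and HOXC6 with 16.2 ± 1.02 TPM (SD, n = 6 each). HOXB5 followed with 15.4 ± 3.27 and HOXB8 with 15 ± 3.70 (SD, n = 6 each). From HOXB6 downwards, each of these genes overlapped with its neighbour. The coefficient of variation over the 6 libraries of a line was 4.98% for HOXB13 in LNCaP and 6.12% in 22Rv1. It was larger for HOXA genes in 22Rv1, with 57.3% for HOXA9, 43.0% for HOXA10 and 41.0% for HOXA5. The single library values behind these were an HOXA9 TPM of 21.2 in NC-mimic library 3 against 4.85 and 5.74 in the other NC-mimic libraries, an HOXA10 TPM of 14.08 in the same library against 5.07 and 9.03, and an HOXA5 TPM of 21.84 in mimic library 3 against 9.45 and 9.83.

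The HOXD cluster was almost without reads. HOXD1, HOXD4, HOXD10, HOXD11 and HOXD12 had 0 expected counts in all 12 libraries. HOXD3 had 4 counts, all in mimic library 2 of 22Rv1. HOXD8 had 3 counts in LNCaP and 22 in 22Rv1, HOXD9 had 0 and 32, and HOXD13 had 8 and 10. HOXD13 is the group 13 gene best known from limb and genital development, and at these counts no difference between the lines was detectable. In the NC-mimic libraries alone, HOXD8 had 0 counts in LNCaP and 15 in 22Rv1 (9, 0 and 6 by library). HOXD9 had 0 and 12 (4, 7 and 1 by library). Against a floor of 3 counts over the 3 LNCaP libraries, the depth-scaled ratios were 5.56 and 4.45, which leave out the error of the 22Rv1 counts. Without the low-count filter, edgeR called neither gene between the lines (adjusted p = 0.0551 and 0.0616). HOXB1 had 1 count in all.

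The first comparison set 22Rv1 against LNCaP in the NC-mimic libraries, 3 against 3. With edgeR's quasi-likelihood test and Benjamini-Hochberg adjustment over all genes, 27 of the 39 HOX genes passed the low-count filter and 12 did not (HOXA2, HOXB1, HOXB2 and the 9 HOXD genes). At an adjusted p under 0.05, 15 were higher in 22Rv1, where 30.9% of all 17497 genes tested were higher, and 3 were lower, where 27.5% of all genes were lower. Of the 15 higher genes, 11 passed the filter only through 22Rv1. They were at its level in every NC-mimic library of 22Rv1 but not in every one of LNCaP. The filter favours a call in such genes, and 86.4% of the 1823 genes of this kind in the fit were called higher. Of 1534 genes that passed only through LNCaP, 62.6% were called lower. The 3 HOX genes of that kind (HOXA4, HOXA11 and HOXC5) were not called. Of the 13 HOX genes at the level of the filter in every NC-mimic library of both lines, 4 were higher (30.8%, against 28% of 13664 such genes), 3 were lower (23.1%, against 28.2%) and 6 were not called, with a median log2 fold change of 0.38 against -0.016. Among genes at this level in both lines, the shares of HOX genes called were thus near those of all genes, but they rest on 13 HOX genes. In bulk samples, fewer cells that express a gene and less RNA per cell cannot be told apart.

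**Figure D3:**
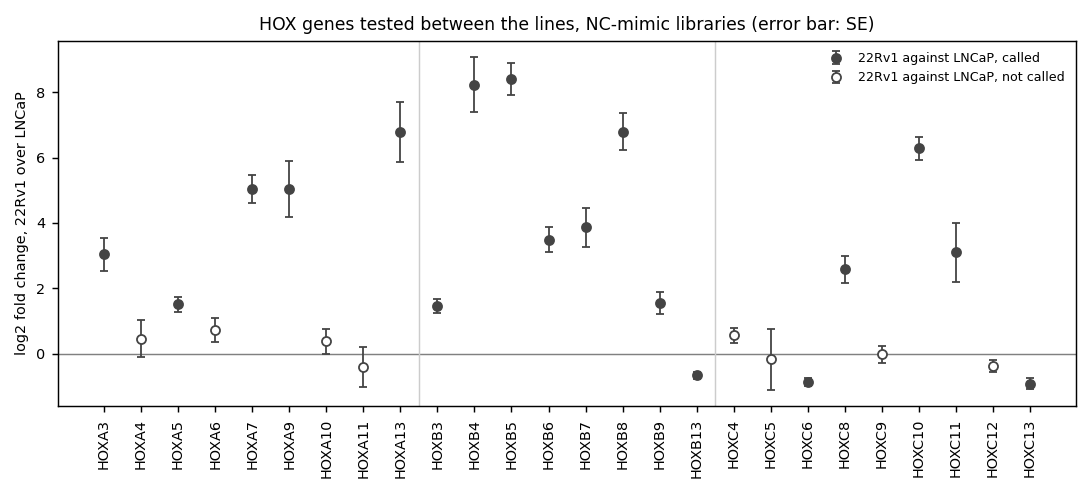
Log2 fold change of 22Rv1 over LNCaP in NC-mimic libraries (y axis, error bars SE, 3 against 3 libraries) for HOX genes tested, in cluster order with grey lines between HOXA, HOXB and HOXC. Filled points have an adjusted p under 0.05: 15 lie above 0, up to 8.41 for HOXB5, and 3 lie below 0, HOXB13, HOXC6 and HOXC13.

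All 3 genes that were lower in 22Rv1 are among the highest HOX genes of LNCaP. HOXB13 was lower by a log2 fold change of -0.66 (SE 0.104, edgeR adjusted p = 0.000913). An exact two-sided permutation test of its log2 CPM (counts scaled by the effective library size) gave p = 0.1 with 3 against 3 libraries, the smallest p that this design allows, and p = 0.00216 with 6 against 6 libraries of both treatments, also the smallest possible. The test of 6 against 6 took all libraries of a line as independent, although 22Rv1 libraries with the same replicate number may be paired. Over the 15 alternative settings its log2 fold change lay between -0.74 and -0.56.

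HOXC6 had a TPM of 29.32, 33.7 and 26.71 in the NC-mimic libraries of LNCaP and 14.55, 16.79 and 16.21 in those of 22Rv1, a log2 fold change of -0.86 (SE 0.135, edgeR adjusted p = 0.000874). HOXC13 had 12, 13.05 and 11.29 in LNCaP and 5.66, 6.43 and 6.45 in 22Rv1, a log2 fold change of -0.91 (SE 0.159, edgeR adjusted p = 0.0015). The lines did not overlap for either gene. HOXC12, the neighbour of HOXC13, had 11.21, 10.12 and 13.12 in LNCaP against 7.47, 10.46 and 7.77 in 22Rv1, which overlapped (log2 fold change -0.36, SE 0.188, edgeR adjusted p = 0.13). Its adjusted p was 0.038 without NC-mimic library 2 of 22Rv1.

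In HOXB, all 8 genes tested were called, 7 of them higher in 22Rv1 and HOXB13 lower. Of all genes tested, 30.9% were higher and 27.5% lower. HOXB4, HOXB5, HOXB7 and HOXB8 passed the filter only through 22Rv1, and 86.4% of all genes of this kind were called. HOXB6 had a TPM of 1.47, 1.41 and 2.76 in LNCaP and 35.71, 24.58 and 21.98 in 22Rv1 (log2 fold change 3.50, SE 0.377, edgeR adjusted p = 0.000123). HOXB3 stood at 3.24 to 4.42 against 15.6 to 16.5 (log2 fold change 1.46, SE 0.228), HOXB7 at 0.25 to 1.57 against 8.35 to 14.2 (3.87, SE 0.603) and HOXB9 at 2.56 to 3.38 against 6.03 to 13.09 (1.55, SE 0.340). In none of these genes did the lines overlap.

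HOXB4, HOXB5 and HOXB8 were at or near 0 in LNCaP. HOXB5 had 0.04, 0 and 0.09 TPM in LNCaP and 17.14, 15.96 and 11.46 in 22Rv1, which were 3 expected counts against 1078 and a depth-scaled ratio of 399 (95% interval 136 to 1939, exact binomial). HOXB8 had 0, 0.18 and 0.08 TPM against 11.97, 15.13 and 10.68, or 7 counts against 731 and a ratio of 116 (95% interval 56.0 to 290). HOXB4, a gene known for the expansion of blood stem cells, had 0 counts in LNCaP and 106 in 22Rv1. Against a floor of 3 counts over the 3 LNCaP libraries, this was a depth-scaled ratio of 39.3. These intervals and floors cover counting error only. HOXB2 had 3 counts against 19 (ratio 7.04, 95% interval 2.07 to 37.1) and was not tested.

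In HOXA, 5 of 10 genes tested were higher in 22Rv1 and none was lower, beside 30.9% and 27.5% of all genes tested. HOXA3, HOXA7, HOXA9 and HOXA13 passed the filter only through 22Rv1. HOXA13, a paralogue of HOXB13, had 0, 0 and 0.03 TPM in LNCaP and 2.17, 0.76 and 0.91 in 22Rv1, or 2 counts against 265 and a ratio of 147 (95% interval 40.4 to 1222). Even in 22Rv1 its mean TPM was 1.28 ± 0.774 (SD, n = 3) beside 147.5 ± 13.3 (SD, n = 3) for HOXB13. HOXA9, known from leukaemia together with MEIS1, had 0.73, 0.37 and 0.38 TPM in LNCaP and 4.85, 5.74 and 21.2 in 22Rv1 (log2 fold change 5.04, SE 0.860, edgeR adjusted p = 0.00134). HOXA3 was higher by 3.04 (SE 0.511), HOXA5 by 1.52 (SE 0.228) and HOXA7 by 5.03 (SE 0.426) on the log2 scale. HOXA4, HOXA6, HOXA10 and HOXA11 were not called, with log2 fold changes between -0.40 and 0.73. HOXA6 had an adjusted p of 0.0231 without NC-mimic library 3 of 22Rv1.

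In HOXC, 3 of 9 genes tested were higher in 22Rv1, 2 were lower (HOXC6 and HOXC13) and 4 were not called. Of all genes tested, 30.9% were higher and 27.5% lower. The 3 higher genes, HOXC8, HOXC10 and HOXC11, passed the filter only through 22Rv1. HOXC10 had 0.12, 0.44 and 1.51 TPM in LNCaP and 17.96, 17 and 22.55 in 22Rv1 (log2 fold change 6.29, SE 0.348, edgeR adjusted p = 4.14e-06), the smallest p-value among the HOX genes. HOXC8 was higher by 2.58 (SE 0.420) and HOXC11 by 3.10 (SE 0.897, edgeR adjusted p = 0.0173) on the log2 scale, at mean TPM of 1.88 and 0.573 in 22Rv1. HOXC11 was no longer called without NC-mimic library 1 (adjusted p = 0.0842) or 2 (adjusted p = 0.0509) of LNCaP. HOXC4 had a log2 fold change of 0.57 (SE 0.229, edgeR adjusted p = 0.0623, and 0.0106 without NC-mimic library 3 of 22Rv1), HOXC9 one of -0.019 (SE 0.271) and HOXC5 one of -0.16 (SE 0.929).

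Leaving out 1 NC-mimic library moved some fitted fold changes between the lines by more than 1.5 times. On the log2 scale, HOXA9 went from 5.04 to 3.84 without library 3 of 22Rv1. Without library 3 of LNCaP, HOXB7 was at 4.87 in place of 3.87, HOXB5 at 9.30 in place of 8.41, HOXA13 at 9.41 in place of 6.78 and HOXC11 at 4.31 in place of 3.10. HOXC11 was at 2.49 without library 2 of LNCaP, and HOXB8 was at 7.85 without library 2 and 6.20 without library 1 of LNCaP in place of 6.80. All of these except HOXC11 stayed called.

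HOXC5 had the widest standard error of the HOXC genes tested: it had 0 TPM in NC-mimic library 3 of 22Rv1 and 2.05 and 2.13 in the other NC-mimic libraries. Of its 75-base windows, 65.8% occur also in overlapping gene models, against 61.5% for HOXA7, 39.2% for HOXA4, 24.5% for HOXA11 and 23.6% for HOXA6. The share was 22.0% for HOXA10, 21.4% for HOXB6, 19.0% for HOXA9 and 0% for HOXB13, HOXB7, HOXB8, HOXB9, HOXC8 and HOXC12. In HOXA9 and HOXA10 the partners include the antisense HOXA10-AS and a gene model on the same strand. In HOXA7, HOXA6 and HOXA11 the partner is antisense (HOXA-AS3 for the first pair and HOXA11-AS), in HOXB6 it is HOXB-AS3 together with HOXB3, and with no strand setting stated the reads of both cannot be told apart.

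**Figure D4:**
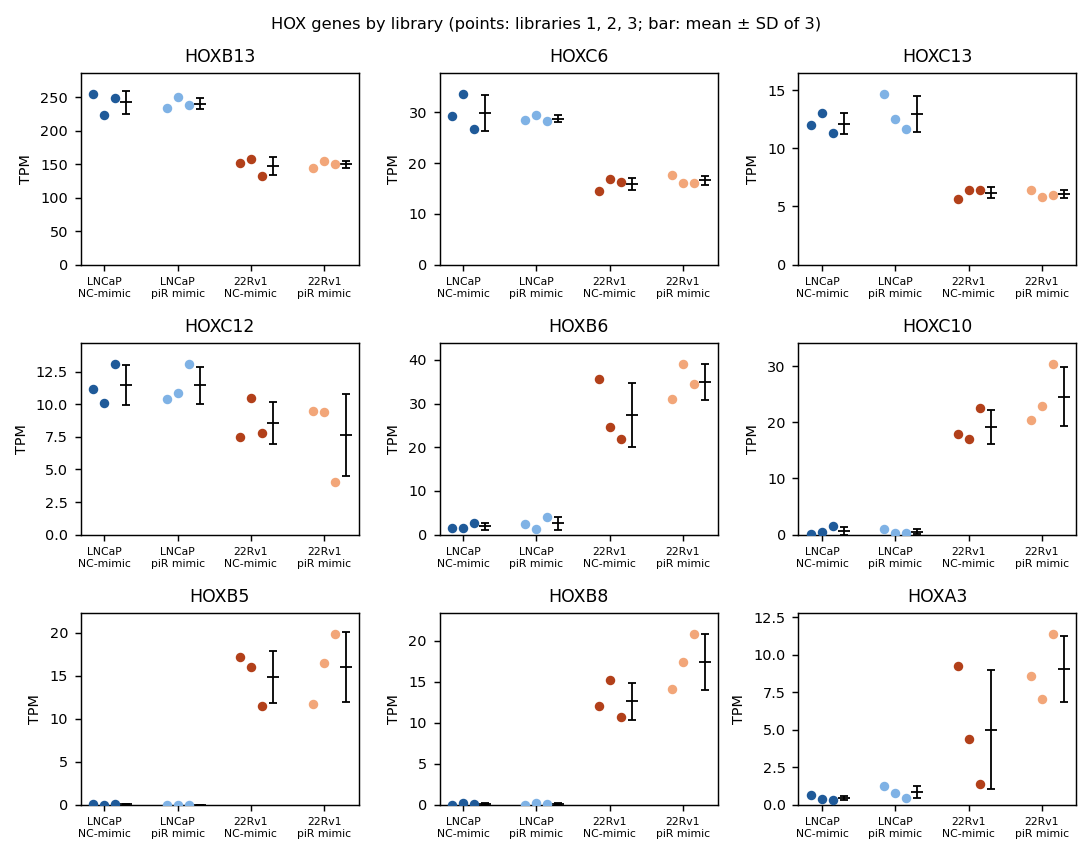
TPM (y axis, from 0) of 9 HOX genes in each library (points), with the mean and SD of 3 libraries beside them, for the 4 groups. HOXB13, HOXC6 and HOXC13 are higher in LNCaP, HOXB6, HOXC10, HOXB5 and HOXB8 are higher in 22Rv1, and the HOXA3 points of 22Rv1 run from 1.37 to 9.23 with NC-mimic and from 7.05 to 11.39 with mimic.

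The mimic libraries, which share none of their samples with the NC-mimic libraries, gave a second look at the same lines. There, 20 of 28 HOX genes tested were called between the lines, 17 higher and 3 lower in 22Rv1, where 52.4% of all 17283 genes tested were called in either direction. All 15 and all 3 genes called in the NC-mimic libraries were called in the same direction, and HOXA2 and HOXA6 were added. Of all genes called in the NC-mimic libraries, 4195 of 5408 higher and 3623 of 4818 lower ones were called in the same direction, and 11 of the 15 HOX genes had passed the filter there only through 22Rv1. HOXA2 had 0.06 to 0.25 TPM with mimic in LNCaP and 1.62 to 3.28 in 22Rv1.

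Next, the mimic was set against NC-mimic in LNCaP, which asks whether more piR-4447944 changed these genes. Here a gene was called by the thresholds of the study, an absolute log2 fold change past 0.2 and a p before adjustment under 0.05, but on edgeR fold changes that were not shrunk, where the study shrank those of DESeq2. Of 18 HOX genes tested, 0 were called by edgeR, where 2.22% of all 16244 genes tested met the rule. An unadjusted p under 0.05 was reached by 0 HOX genes, DESeq2 and limma also called 0, and 0 of all genes tested had an adjusted p under 0.05. HOXB13 had a log2 fold change of -0.011 (SE 0.069, edgeR adjusted p = 0.999), and an exact two-sided permutation test gave p = 0.9 with 3 against 3 libraries. The smallest p-values were those of HOXB6 (log2 fold change 0.51, SE 0.439, edgeR p = 0.264, exact permutation p = 0.7), HOXC9 (0.15, SE 0.168, edgeR p = 0.38, exact permutation p = 0.3) and HOXA6 (-0.27, SE 0.309, edgeR p = 0.396, exact permutation p = 0.6), each with an adjusted p of 0.999. The most precise estimates, those of HOXB13, HOXC6 (-0.050, SE 0.097), HOXC13 (0.095, SE 0.114) and HOXC12 (0.0017, SE 0.128), lay within 0.1 of 0 on the log2 scale.

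In 22Rv1, 1 of 28 HOX genes tested met the same rule, where 1.48% of all 16898 genes tested met it. The gene was HOXA3, an anterior gene of group 3. Its TPM was 9.23, 4.4 and 1.37 with NC-mimic and 8.6, 7.05 and 11.39 with mimic, so that the groups overlapped and NC-mimic library 3 was the lowest of the 6. In CPM, which is not scaled by length, the groups did not overlap but met closely, with 8.02, 3.68 and 2.85 with NC-mimic and 8.94, 8.20 and 14.4 with mimic. The log2 fold change was 1.10 (SE 0.447, edgeR p = 0.0418, adjusted p = 0.999), and an exact two-sided permutation test of log2 CPM gave p = 0.1, the smallest that 3 against 3 libraries allow. The call was lost without NC-mimic library 2 (log2 fold change 0.94) or 3 (0.84) and without mimic library 1 (1.19) or 3 (0.81), and on the log2(TPM + 1) scale with limma (0.96). Libraries of 22Rv1 with the same replicate number may be paired, which the fit and the permutation test above did not take into account. With the replicate number as a block, edgeR called 2 HOX genes, HOXA3 (log2 fold change 1.18) and HOXA13 (0.88), each with an adjusted p of 0.869.

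HOXB13 had a log2 fold change of -0.044 in 22Rv1 (SE 0.122, edgeR adjusted p = 0.999), with an exact two-sided permutation p of 0.7. HOXA13 had 2.17, 0.76 and 0.91 TPM with NC-mimic and 4.48, 1.57 and 2.67 with mimic, which overlapped (log2 fold change 0.78, SE 0.456, edgeR p = 0.13, exact permutation p = 0.2). HOXB3 had a log2 fold change of 0.44 (SE 0.256, edgeR p = 0.131, exact permutation p = 0.3). Without both replicate 3 libraries, HOXA3 was not called (log2 fold change 0.54), while HOXA9 (0.79) and HOXC5 (-1.81) met the rule, each with an edgeR adjusted p of 0.976. HOXA9 was the gene with the TPM of 21.2 in NC-mimic library 3, and HOXC5 the gene at 0 there.

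**Figure D5:**
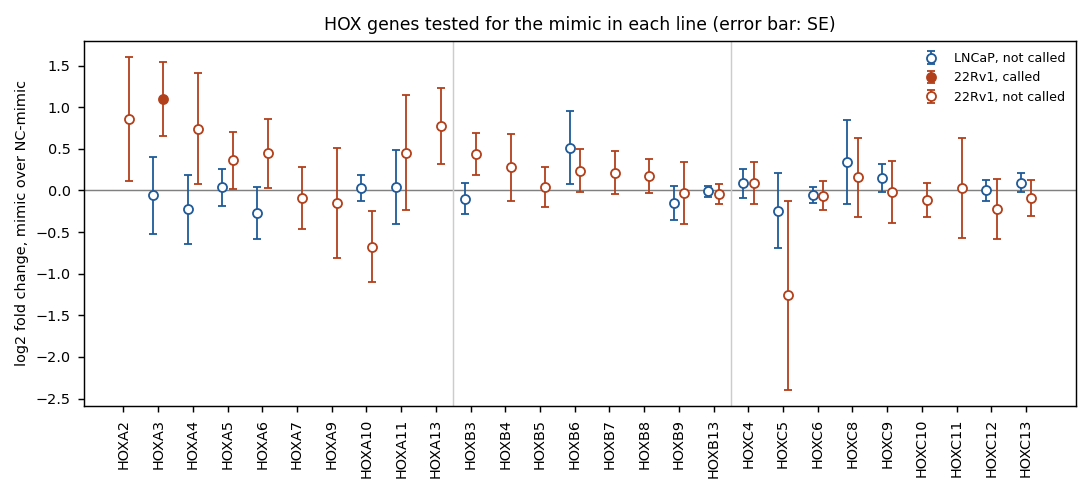
Log2 fold change of mimic over NC-mimic (y axis, error bars SE, 3 against 3 libraries) for the HOX genes tested in LNCaP (blue) and in 22Rv1 (red), in cluster order. The filled point is HOXA3 in 22Rv1 at 1.10, the only HOX gene past both thresholds, and the error bars in 22Rv1 are wider than in LNCaP for HOXB13 (0.122 against 0.069) and most others.

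The mimic effect was then compared between the lines in one fit over 12 libraries, in which the control libraries of both lines enter. Of 28 HOX genes tested, 0 met the rule for the difference, where 3.26% of all 18720 genes tested met it, and 0 had an unadjusted p under 0.05 with edgeR. DESeq2 and limma also called 0. The smallest p was that of HOXB5 (difference 3.11, SE 1.42, edgeR adjusted p = 1), which rests on 3 counts with NC-mimic and 0 with mimic in LNCaP. HOXA3 had a difference of 1.16 (SE 0.621, edgeR adjusted p = 1), so the call in 22Rv1 was not shown to differ from LNCaP, and HOXB13 had one of -0.030 (SE 0.132, edgeR adjusted p = 1). Leaving out 1 library gave between 0 and 3 called genes. The 3 were HOXA3, HOXB3 and HOXA10, without NC-mimic library 1 of 22Rv1. HOXB5 was called without NC-mimic library 2 of LNCaP or mimic library 1 of 22Rv1, HOXA13 without NC-mimic library 3 of LNCaP, and HOXC10 without mimic library 1 of LNCaP.

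HOX proteins bind DNA together with TALE cofactors, the PBX, MEIS and PKNOX proteins. Of 9 cofactor genes, 8 were tested between the lines in NC-mimic libraries, with 3 higher and 3 lower in 22Rv1 and a median log2 fold change of 0.32. Of all 17497 genes tested, 30.9% were higher and 27.5% lower, with a median of 0.015. PKNOX2 had 11.22 to 12.06 TPM in LNCaP and 0 to 0.03 in 22Rv1 (fitted log2 fold change -9.90). It passed the filter only through LNCaP, which favours a call. PBX4 was lower in 22Rv1 by -1.43 (SE 0.399), and MEIS3 was higher by 4.06 (SE 0.809), PBX2 by 0.30 (SE 0.103) and PKNOX1 by 0.41 (SE 0.155) on the log2 scale. MEIS3 had a TPM of 22.82 in NC-mimic library 3 of 22Rv1 and 3.78 and 4.44 in the others. MEIS1 and PBX3 were not called. With the mimic, 0 of 8 cofactors were called in LNCaP, with 0 at an unadjusted p under 0.05 by edgeR. In 22Rv1, 1 of 7 was called, MEIS1 (log2 fold change 0.84, SE 0.356, edgeR adjusted p = 0.999). Its TPM was 0.91 to 1.28 with NC-mimic and 1.5 to 3.37 with mimic. Of all genes tested, 2.22% met this rule in LNCaP and 1.48% in 22Rv1.

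Polycomb proteins keep HOX clusters silent through methylation of histone H3 and compaction of chromatin, and trithorax proteins and demethylases oppose them. Of 27 genes of both kinds, all were tested between the lines, with 8 higher and 6 lower in 22Rv1, a median log2 fold change of 0.16 and 13 not called. Of all 17497 genes tested, 30.9% were higher and 27.5% lower. KDM6A, which removes the Polycomb mark, had 113.01 to 130.83 TPM in LNCaP and 7.15 to 12.66 in 22Rv1 (log2 fold change -3.66, SE 0.157, edgeR adjusted p = 1.25e-06). EZH2, which places the mark, had 19.04 to 24.4 TPM in LNCaP and 54.63 to 70.93 in 22Rv1 (log2 fold change 1.70, SE 0.136, edgeR adjusted p = 2.57e-05). JARID2, a partner of EZH2, was lower in 22Rv1 by -1.46 (SE 0.203). SUZ12 (-0.33), CBX2 (-0.99), PHC1 (-0.32) and KMT2C (-0.47) were also lower, and RBBP4 (0.37), RING1 (0.63), RNF2 (0.91), CBX7 (0.93), KMT2B (0.54), MEN1 (0.83) and DOT1L (0.81) higher, all as log2 fold changes. In the mimic libraries 11 were higher and 2 were lower, KDM6A (-3.42) and CBX2 (-1.31), while JARID2 (-1.001, edgeR adjusted p = 0.0609), SUZ12 (-0.28, 0.235), KMT2C (-0.17, 0.161) and PHC1 (0.058, 0.828) were not called. Of all 17283 genes tested in the mimic libraries, 52.4% were called in either direction. Neither line had a called gene of this list for the mimic against NC-mimic (0 of 27 each by edgeR, and 0 of 27 with an unadjusted p under 0.05). Of all genes tested there, 2.22% met the rule in LNCaP and 1.48% in 22Rv1.

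The clusters also produce noncoding RNAs, several of which are antisense to HOX genes. Of 18 on the list, 9 were tested between the lines, with 5 higher and 3 lower in 22Rv1, beside 30.9% and 27.5% of all genes tested. HOXB-AS3 had 0 TPM in all 6 LNCaP libraries and 5.18 to 26.65 in 22Rv1, where the coding genes around it, HOXB5 and HOXB6, were also higher. HOXC-AS2 and HOXC-AS3, beside HOXC9 and HOXC10, were higher in 22Rv1 by log2 fold changes of 5.35 (SE 0.931) and 5.22 (SE 0.715), HOXA-AS2 by 2.80 (SE 0.638) and HOXA-AS3 by 1.38 (SE 0.443). HOXC13-AS went the other way, with 4.53, 5.1 and 4.58 TPM in LNCaP and 0, 0 and 0.09 in 22Rv1 (log2 fold change -7.22, SE 0.732, edgeR adjusted p = 8.97e-05), where HOXC13 itself was lower by -0.91. HOXA11-AS was lower in 22Rv1 by -2.69 (SE 0.427) while HOXA11 was not called.

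HAGLR of the HOXD cluster had 0.29 to 0.51 TPM in the NC-mimic libraries of LNCaP and 0 in all 22Rv1 libraries (edgeR adjusted p = 0.00167), and the HOXD coding genes were near 0 in both lines. HOTAIRM1, at the anterior end of HOXA, was not called (log2 fold change -0.25, SE 0.465). HOTAIR, a HOXC transcript known to bind Polycomb, had at most 0.29 TPM in LNCaP and 0.28 to 1.88 in 22Rv1. It was not tested in the NC-mimic libraries and was higher in 22Rv1 over all 12 libraries (log2 fold change 4.27, SE 0.927, edgeR adjusted p = 0.00112). HOTTIP, beside HOXA13, had 0 TPM in LNCaP and 0.09 to 0.8 in 22Rv1. With the mimic, 0 of 5 noncoding RNAs tested in LNCaP and 0 of 9 in 22Rv1 were called by edgeR, and 0 had an unadjusted p under 0.05. Of all genes tested, 2.22% met the rule in LNCaP and 1.48% in 22Rv1. HOXB-AS3, HOXC-AS2, HOXC-AS3, HOXC13-AS, HAGLR and HOTAIR were at or near 0 in 1 line and passed the filter only through the other, which favours a call. Fitted fold changes of such genes depend on the prior count of the fit and are no bound. The filter also favours the calls of HOXA-AS2 and HOXA11-AS. HOXA-AS2 did not pass it in the mimic comparison of LNCaP, with 0.07 to 0.67 TPM in the NC-mimic libraries of that line. HOXA11-AS did not pass it in that of 22Rv1, with 0.4 to 0.91 TPM in the NC-mimic libraries there.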

How the data were processed

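mRNA libraries of LNCaP and 22Rv1 cells with NC-mimic or piR-4447944 mimic were used, 3 per group. The authors used STAR 2.7.1a on hg38 and RSEM 1.3.0. The expected counts the authors deposited are not normalized and divide reads that match several genes. TPM, also deposited by the authors, correct for gene length and depth. The table of TPM over all libraries differed from the single tables by 0 at most. Strand, trimming, read length and annotation release are not given in the sources used here.

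Rounded expected counts were fitted with edgeR 4.0.16 under R 4.3.3 (TMM, filterByExpr, glmQLFit, glmQLFTest), with Benjamini-Hochberg adjustment over all genes of a fit. NC-mimic libraries entered the comparison of the lines, the 6 libraries of a line that of the mimic, and all 12 that of the mimic effect between lines. Whether the lines were prepared together is not stated, so preparation and line cannot be told apart. Mimic effects were called by the study's thresholds on unshrunken edgeR estimates, where the study used DESeq2 with shrinkage. Standard errors came from the estimate and its F statistic. Bounds used a floor of 3 counts per group and exact 95% binomial intervals. The fits were tested on simulated data. Gene models, overlaps and the homeobox stretches came from GENCODE release 44, in which 39 of 39 IDs matched. The homeobox stretch was found by translating the transcripts.

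The members and lists were chosen with earlier results of these data known. All 39 genes were accounted for. Described in detail were the 5 highest in each line, paralogue group 13, the 5 with the largest change in each direction among those called between lines, genes called with the mimic and, where fewer than 3 were, the 3 with the smallest p, and of the lists the called genes and the 3 with the largest change. The genes shown for single libraries and the transcripts HOTAIR, HOTTIP and HOTAIRM1 were added after their values were seen.

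Deviations from the group means correlated across genes between mimic and NC-mimic libraries of the same number by 0.198, 0.167 and 0.355 in 22Rv1. Each was over 0.1, so the numbers may pair these libraries, judged from the values alone. These values are not independent of each other, because deviations from a mean cancel out within a group. A shift shared by a single pair of libraries thus raises the correlations of the other numbers too. Libraries with unlike numbers were not compared, so a pairing was not shown. The main fit and the permutation tests in 22Rv1 did not use this possible pairing, and a fit with the replicate number as a block was set beside them. In LNCaP they were 0.021, 0.0050 and 0.189, and between the NC-mimic libraries of the lines 0.0077, 0.024 and 0.104. Not all of these were over 0.1, so no pairing was assumed there, and the block was run there as another setting.

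Other settings were scaling by DESeq2's size factors, all genes without a filter, a minimum of 10 counts in each library, DESeq2 1.42.0, limma 3.58.1 on log2(TPM + 1) where 3 libraries reached a TPM of 1, a replicate block, other libraries, other call rules and leaving out each library. The study's tests of tissues, proteins and animals were not analysed here. The values of 2 genes that the counts include are not reported here.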

Additional observations from a re-analysis of the deposited data

Results flagged for a closer look

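The difference of the mimic effect between the lines passed the thresholds of the study (on edgeR fold changes without shrinkage) for 3 genes of the lists and for 0 of the 28 HOX genes tested, and none of the 3 had an adjusted p under 0.05. For PKNOX2, the effect in 22Rv1 minus that in LNCaP was 3.18 on the log2 scale (SE 1.40, edgeR adjusted p = 1), with 0, 0 and 0.03 TPM with NC-mimic and 0, 0.02 and 0.25 with mimic in 22Rv1, and 9.34 to 12.94 in LNCaP. For BMI1, a Polycomb gene, it was 0.415 (SE 0.188, edgeR adjusted p = 1), with a log2 fold change of -0.097 (SE 0.104) in LNCaP and 0.32 (SE 0.150) in 22Rv1. For KLK3, which encodes prostate-specific antigen and was on the list of luminal markers, it was -0.665 (SE 0.296, edgeR adjusted p = 1), with a log2 fold change of -0.095 (SE 0.072) in LNCaP and -0.76 (SE 0.281) in 22Rv1. Of all genes tested, 3.26% passed the same thresholds.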

How the results depend on the processing

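Of 148 alternative values, 122 kept the direction and the side of the threshold or stayed within the limit set for a count, 20 moved and 6 changed sign. Between the lines, 15 higher and 3 lower genes became 5 higher with at least 10 counts in every library, which leaves out genes near 0 in LNCaP, and 0 lower where an absolute log2 fold change over 1 was asked. Leaving out 1 library gave 15 to 17 higher and 3 to 4 lower genes. Without the replicate 3 libraries of 22Rv1, a setting chosen after seeing the data, the fit over the other 10 libraries gave 19 and 4. For the mimic in 22Rv1, 1 called gene became 0 with limma on log2(TPM + 1) and 0 at an adjusted p under 0.05. It became 2 with the replicate block and 2 without both replicate 3 libraries, and leaving out 1 library gave 0 to 2. For the difference between the lines, 0 became 2 without all replicate 3 libraries, HOXA13 and HOXC5, a setting also chosen after seeing the data, and leaving out 1 library gave 0 to 3. In LNCaP, 0 genes were called under every alternative tried. The replicate block changed no other call of a comparison's count or of HOXB13.

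The HOXB13 effect of the mimic changed sign, always without passing the rule. In LNCaP it was 0.036 without both replicate 3 libraries and between -0.077 and 0.032 when 1 library was left out. In 22Rv1 it was 0.025 with limma and between -0.10 and 0.021 when 1 library was left out. The number of HOX genes expressed in LNCaP fell to 7 at a mean TPM of at least 5. The share of HOXB13 was 79.4% in LNCaP and 55.2% in 22Rv1 of the summed expected counts, which are not scaled by length, and between 70.08% and 70.71% and between 38.06% and 39.85% of the summed TPM when 1 library was left out. With 3 libraries per group and the spread of 22Rv1, small effects of the mimic were not detectable there, and genes near 0 in LNCaP have counting intervals only. The cause of the other moves was not tested.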

Other observations

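PRAC1 and PRAC2, small genes known from prostate and colorectum, lie directly beside HOXB13 in the gap of the HOXB cluster. PRAC1 (chr17:48721719-48722518, minus strand) was above HOXB13 in TPM in every LNCaP library, with 1109.6, 921.68 and 1153.14 with NC-mimic and 1029.81, 1085.2 and 1159.63 with mimic. In 22Rv1 it had 181.32, 180.57 and 127.33 with NC-mimic and 186.78, 159.83 and 268.66 with mimic. There it was above HOXB13 in every library except NC-mimic library 3 (127.33 against 132.6). The log2 fold change of PRAC1 between the lines was -2.63 in NC-mimic libraries (SE 0.168, edgeR adjusted p = 8.36e-06), beside -0.66 for HOXB13. PRAC2 (chr17:48723185-48724758, plus strand) had 64.96 to 117.36 TPM in LNCaP and 57.53 to 85.87 in 22Rv1 in the same libraries, which overlapped (log2 fold change -0.19, SE 0.252, edgeR adjusted p = 0.549). With the mimic, PRAC1 had log2 fold changes of 0.17 (SE 0.083, edgeR adjusted p = 0.999) in LNCaP and 0.35 (SE 0.299, edgeR adjusted p = 0.999) in 22Rv1.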
